A study of Mus musculus with 6 samples.

Results

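The expression of the ITAM adaptors, the Fc gamma receptors and TREM2 was examined in monocytes of the mandible and the femur. The set held 9 genes chosen by name, Tyrobp, Fcer1g, Trem2, Syk, Sirpa, Fcgr1, Fcgr2b, Fcgr3 and Fcgr4, out of 57010 genes in the count table, and all 9 were among the 18114 genes that passed the filter on low counts. Marrow was flushed from mandibles and femurs of C57BL/6 mice 1 year old (C57BL/6J of both sexes in the study's methods), and monocytes were kept as the fraction that did not bind antibody-coated beads, after an Fc receptor blocking reagent had been added. Bulk RNA-seq was performed on 6 libraries, S16, S19 and S23 from the mandible and S13, S15 and S18 from the femur, 3 per site, none of which carried a transgene or a treatment. The labels give neither the animal nor the sex behind a library, so p-values here measure the spread between these samples, which may be technical. The comparison addressed whether osteoclast precursors of the jaw and of the long bone differ in this pathway.

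An ITAM is a short cytoplasmic stretch with a pair of tyrosines, which become phosphorylated when a receptor coupled to it is engaged and then dock the kinase Syk. Monocytes carry ITAMs on the small adaptor chains DAP12, encoded by Tyrobp, and FcR gamma, encoded by Fcer1g, which pair with receptors such as TREM2 and the activating Fc gamma receptors. In osteoclast precursors this pathway acts as a co-stimulus beside RANKL and raises the calcium signal that activates NFATc1, whereas ITIM-bearing receptors recruit phosphatases that oppose it.

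The stretches that define the adaptors and the inhibitory receptor are shown because they separate the activating from the inhibitory members. They were read 5′ to 3′ from GENCODE M21 transcripts (GRCm38), with the codons of the signalling tyrosines in capitals. The ITAM pattern of the search was a tyrosine, any 2 residues and a leucine or isoleucine, repeated after 6 to 12 residues, and among the 9 coding sequences it was found in Tyrobp (codons 92 to 106 of 114) and Fcer1g (codons 65 to 79 of 86). The ITIM shown for Fcgr2b spans codons 317 to 322 of 340.
Tyrobp ITAM: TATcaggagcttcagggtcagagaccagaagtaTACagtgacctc
Fcer1g ITAM: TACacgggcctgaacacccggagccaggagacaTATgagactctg
Fcgr2b ITIM: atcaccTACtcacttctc
Sirpa, whose cytoplasmic tail carries ITIMs, matched the 6-residue ITIM pattern at codons 438 to 443, 479 to 484 and 503 to 508 of 513. The same letters also matched in Fcgr1, Fcgr4, Tyrobp and Fcer1g, so a match is a description of the sequence and not of a signalling site.

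The members lie on 6 chromosomes of GRCm38. Fcgr2b (chr1:170958617-170976547, minus strand), Fcgr4 (chr1:171018920-171029761, plus strand), Fcgr3 (chr1:171051174-171064935, minus strand) and Fcer1g (chr1:171229572-171234365, minus strand) are neighbours on chromosome 1. Tyrobp is at chr7:30413760-30417585, Trem2 at chr17:48346401-48354147, Syk at chr13:52583173-52648792 and Sirpa at chr2:129592835-129632228, all on the plus strand, and Fcgr1 is at chr3:96282909-96293969 on the minus strand. Fcgr2b and Fcgr3 share sequence, with 87.5% identity over 785 aligned coding bases, against 67.9 to 69.9% in the other pairs of Fc gamma receptors. Their longest identical run, 129 bases from base 278 of the Fcgr2b coding sequence, is printed because a read that falls inside it matches both genes.
Fcgr2b and Fcgr3 shared run: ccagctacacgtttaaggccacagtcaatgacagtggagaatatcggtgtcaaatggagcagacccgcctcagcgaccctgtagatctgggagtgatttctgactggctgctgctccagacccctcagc
Of all stretches of 50 bases, the read length, 6.95% of those in Fcgr2b and 9.58% of those in Fcgr3 also occurred in another gene, and none of those in the other 7 members did. Of the 5685 stretches in Fcgr2b, 166 were shared with Fcgr3, 107 with Gm38204 and 98 with Cplx2. Those of Fcgr3 were shared with Fcgr2b only. Exons of Fcgr2b, but not of Fcgr3, also overlap the antisense gene Gm38204. That gene had 0, 10 and 0 counts in the femur and 0, 0 and 35 in the mandible. The counts of Fcgr2b and Fcgr3 carry the uncertainty of shared sequence, and those of Fcgr2b also that of the overlap.

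The libraries held 15718782 to 25371474 counts on genes, and the 9 members took 0.106 to 0.142% of them. Levels are given as counts per 1000000 (CPM) after TMM scaling, which corrects for differences in composition between libraries. Monocyte markers were abundant at both sites, with a summed level of 7263 to 15247 CPM and none of 10 called different by edgeR, 0 of them at an unadjusted p under 0.05. Markers of other cells were present in part: mesenchymal and osteoblast genes summed to 9191 to 15602 CPM in the mandible and 149 to 188 in the femur, with 10 of 10 called higher. Platelet genes summed to 73.7 to 108 CPM in the mandible and 564 to 904 in the femur, with 6 of 7 tested called lower. Mandible library S23 stood apart in Xist, at 1441 CPM against at most 0.553 in the others, and had no count on Y-linked genes, which allows up to 0.191 CPM, against 2772 to 4590 counts in the others. By these genes S23 was the only library of female type, so sex was not balanced between the sites. Its part in the values was not tested.

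None of the 9 genes was called different between the skeletal sites at an adjusted p under 0.05 with at least a 2-fold change (quasi-likelihood test of edgeR, p-values adjusted by Benjamini-Hochberg over all tested genes), where 938 of all tested genes (5.18%) were called, 3.88% higher and 1.30% lower in the mandible. Tyrobp and Fcgr2b had an unadjusted p under 0.05, that is 2 of 9 against 16.4% of all tested genes. In these same 2 genes every mandible library lay below every femur library, which 11.5% of all tested genes showed, and no member lay wholly above, which 12.7% showed. The fitted log2 fold change of the mandible over the femur was below 0 in 7 of the 9 genes, with a median of -0.37 against -0.038 over all tested genes. That gap was not kept in every setting: with the length trend removed the medians were -0.20 and -0.18, and without a filter on low counts -0.41 and -1.09. The number called was also 0 in each of 18 alternative settings. In bulk samples, fewer cells of a type and less RNA per cell cannot be told apart.

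**Figure D1:**
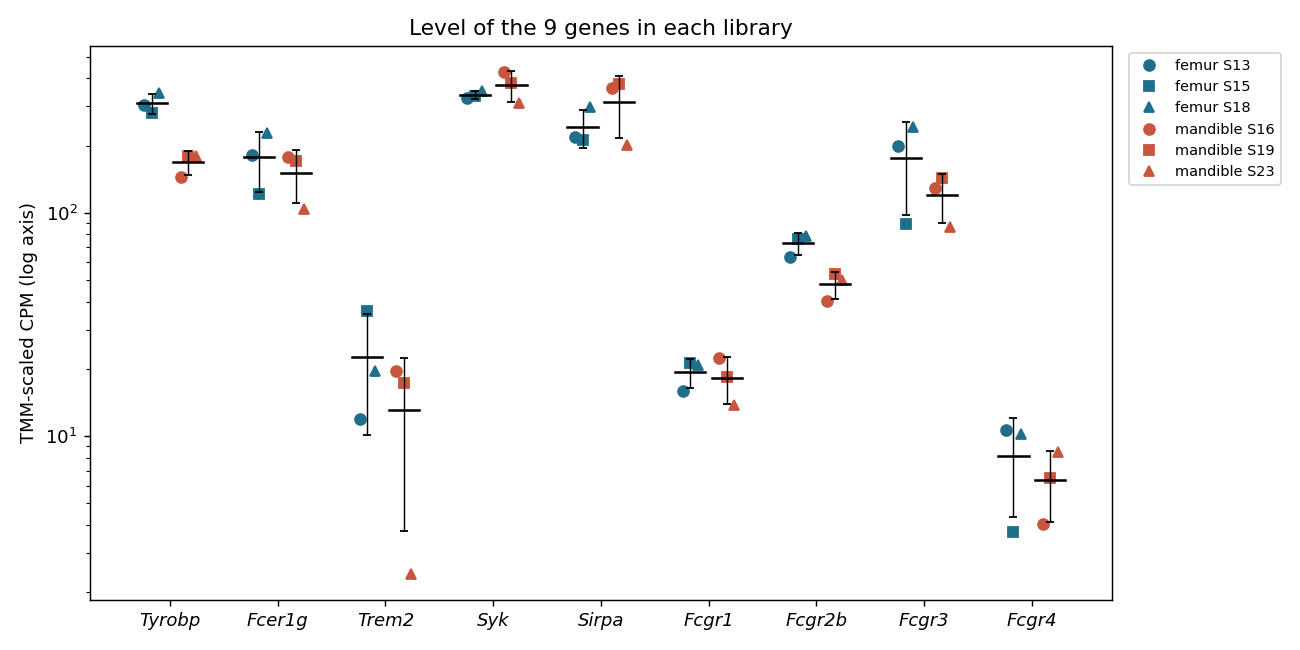
TMM-scaled CPM of each of the 9 genes (vertical log axis) in the 3 femur (blue) and 3 mandible (red) libraries, with the mean (line) and SD (bar) of each group. Tyrobp and Fcgr2b are the genes whose groups do not overlap, and Trem2 runs from 2.40 CPM in mandible S23 to 36.3 in femur S15.

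Tyrobp, which encodes the ITAM adaptor DAP12, was at 303, 280.3 and 343 CPM in femur S13, S15 and S18 and at 145, 180.4 and 179 CPM in mandible S16, S19 and S23. The groups did not overlap, and the highest mandible library was well under the lowest femur library. Femur libraries averaged 309 ± 31.8 CPM and mandible libraries 168 ± 19.8 CPM (SD, n = 3 each). Mandible over femur, the fitted log2 value was -0.88 (standard error 0.26, 95% interval -1.44 to -0.31), with an unadjusted p of 0.0056 and an edgeR quasi-likelihood p of 0.083 after Benjamini-Hochberg adjustment, so it missed the threshold. An exact two-sided permutation test gave p = 0.10, the smallest that 3 against 3 libraries allow. With DESeq2 the adjusted p was 0.0063, but the fold change of Tyrobp stayed under 2. The same held without femur S15, at a log2 fold change of -0.99 (edgeR adjusted p = 0.031). With 1 library left out the value lay between -0.99 and -0.78, and the largest adjusted p was 0.34, without femur S18 (edgeR). Tyrobp has 667 exonic bases, the shortest of the 9, and once the trend of expression with gene length was taken out of each library its log2 fold change was -0.20 (95% interval -0.90 to 0.51, edgeR adjusted p = 0.82). Whether length itself set the difference was not tested.

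Fcer1g, which encodes the FcR gamma chain shared by the activating Fc receptors and OSCAR, was at 182, 121 and 228 CPM in femur S13, S15 and S18 and at 178, 171 and 104 CPM in mandible S16, S19 and S23. The groups overlapped, with the lowest values in femur S15 and mandible S23. The log2 fold change was -0.23 (95% interval -0.92 to 0.47, edgeR quasi-likelihood adjusted p = 0.83), and it was 0.36 with the length trend removed, so no direction is given. Between the adaptors within a library, the ratio of Tyrobp to Fcer1g per kilobase of exon was 2.17, 3.03 and 1.97 in the femur and 1.07, 1.38 and 2.24 in the mandible (same order of libraries). Mandible S23 overlapped the femur in this ratio while S16 and S19 lay below it. The difference of the log2 ratios was -0.66 (exact two-sided permutation p = 0.30), and with 1 library left out it lay between -0.95, without mandible S23, and -0.42, without mandible S16.

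Trem2, a lipid-sensing receptor that signals through DAP12, varied most of the 9 genes. It had 11.9, 36.3 and 19.5 CPM in femur S13, S15 and S18 and 19.5, 17.2 and 2.40 CPM in mandible S16, S19 and S23, a ratio of 15.1 between the highest and the lowest library. Femur S15 was far above the other femur libraries and mandible S23, with 42 counts against 363 and 389, far below the other mandible libraries. The remaining 4 libraries overlapped. Per kilobase of exon, femur libraries averaged 4.56 ± 2.52 CPM and mandible libraries 2.64 ± 1.88 CPM (SD, n = 3 each). The log2 fold change was -0.79 (95% interval -2.22 to 0.64, edgeR quasi-likelihood adjusted p = 0.66). It was -0.32 without femur S15 and -0.36 without mandible S23, and -1.18 without mandible S16, so its size rested on single libraries. The SD of log2 CPM within groups was 1.23 for Trem2, and 5.79% of the 16136 genes with a mean of at least 1 CPM had a larger one. The ratio of Trem2 to Tyrobp per kilobase was 0.00532, 0.0174 and 0.00768 in the femur and 0.0181, 0.0129 and 0.00181 in the mandible. S16 and S19 were near S15, and S23 was the lowest of the 6. The log2 difference of this ratio was -0.25 (exact two-sided permutation p = 0.90) and turned to 0.77 without mandible S23 and to 0.23 without femur S15, while it was -0.89 without mandible S16.

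Syk, the kinase recruited by phosphorylated ITAMs, was the most even member, at 325, 333 and 351 CPM in femur S13, S15 and S18 and at 427, 379.5 and 310.1 CPM in mandible S16, S19 and S23. The mandible libraries lay on both sides of the femur libraries. The log2 fold change was 0.15 (95% interval -0.44 to 0.73, edgeR quasi-likelihood adjusted p = 0.88), so a change of 2-fold in either direction lay outside the interval. Syk has the most exonic bases of the set, 9362, and its value was -0.39 with the length trend removed (95% interval -1.20 to 0.41, edgeR adjusted p = 0.66).

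Sirpa, the ITIM-bearing receptor for CD47, was at 218, 212 and 297 CPM in the femur libraries and at 361, 379 and 201 CPM in mandible S16, S19 and S23. Mandible S16 and S19 were above all femur libraries, but S23 was the lowest of the 6. The log2 fold change was 0.37 (95% interval -0.32 to 1.06, edgeR quasi-likelihood adjusted p = 0.67). With 1 library left out it lay between 0.16, without mandible S19, and 0.56, without mandible S23.

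Fcgr2b, the inhibitory Fc gamma receptor, was at 63.7, 76.6 and 78.7 CPM in femur S13, S15 and S18 and at 40.3, 53.1 and 50.1 CPM in mandible S16, S19 and S23. The groups did not overlap. Femur libraries averaged 73.0 ± 8.14 CPM and mandible libraries 47.8 ± 6.67 CPM (SD, n = 3 each). Its fitted log2 value was -0.61 (standard error 0.25, 95% interval -1.15 to -0.07), with an unadjusted p of 0.030 and an edgeR quasi-likelihood p of 0.23 after Benjamini-Hochberg adjustment. The exact permutation p was 0.10. Fcgr2b stayed below 0 in all 17 alternatives, between -0.93 with the length trend removed and -0.50 with total counts alone. Tyrobp, Trem2, Fcgr3 and Fcgr4 also stayed below 0 in all 17. With pan-leukocyte scaling the 95% interval of Fcgr2b was -1.38 to 0.35 (edgeR adjusted p = 0.80).

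Fcgr3, an activating receptor that needs FcR gamma, was at 199, 88.9 and 241 CPM in femur S13, S15 and S18 and at 129, 143 and 86.6 CPM in the mandible libraries. Femur S13 and S18 were above the mandible, and femur S15 was at the level of mandible S23. The log2 fold change was -0.56 (95% interval -1.37 to 0.24, edgeR quasi-likelihood adjusted p = 0.53), -0.93 without femur S15 (edgeR adjusted p = 0.062) and -0.27 without femur S18. Markers of neutrophils, which also transcribe Fcgr3, Fcer1g and Tyrobp, were high and low in the same femur libraries. The 12 markers summed to 33333, 3800.5 and 23978 CPM in femur S13, S15 and S18 and to 7061, 10504 and 4004 in mandible S16, S19 and S23. The fitted log2 fold changes ran from -2.77 (S100a8, the 1 marker called lower by edgeR) to -0.01 (Mmp8), and 6 of the 12 had an unadjusted p under 0.05. Their part in the values of Fcgr3 was not tested. Because Fcgr3 and Fcgr2b share sequence, their sum was also taken, and it averaged 249 ± 77.9 CPM over femur and 167 ± 29.6 CPM over mandible libraries (SD, n = 3 each), a log2 difference of -0.54 (exact two-sided permutation p = 0.30).

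Fcgr1, the high-affinity receptor for monomeric IgG, was at 15.9, 21.2 and 20.8 CPM in femur S13, S15 and S18 and 22.4, 18.4 and 13.8 CPM in the mandible libraries, which overlapped. Its value was a log2 fold change of -0.08 (95% interval -0.83 to 0.66, edgeR quasi-likelihood adjusted p = 0.95). Fcgr4, an activating receptor typical of nonclassical monocytes, had 10.6, 3.73 and 10.2 CPM in the femur libraries and 4.05, 6.46 and 8.52 CPM in the mandible. The femur libraries lay on both sides of the mandible. Its log2 fold change was -0.37 (95% interval -1.62 to 0.89, edgeR quasi-likelihood adjusted p = 0.85), so a missed threshold does not show equal levels at this spread. Of 8 nonclassical monocyte markers, Nr4a1 and Ace were called higher in the mandible (log2 fold changes 1.25 and 1.21), and Ear2 was called lower (-2.17). The balance of inhibitory and activating Fc gamma receptors, as the ratio of Fcgr2b to the sum of Fcgr1, Fcgr3 and Fcgr4 per kilobase, was 0.0851, 0.212 and 0.0878 in the femur and 0.0809, 0.0970 and 0.140 in the mandible. Femur S15 was the highest and mandible S23 the next, and the other 4 libraries were close together. The log2 difference was -0.18 (exact two-sided permutation p = 0.80) and, with 1 library left out, between -0.40, without femur S13 or mandible S23, and 0.25, without femur S15.

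**Figure D2:**
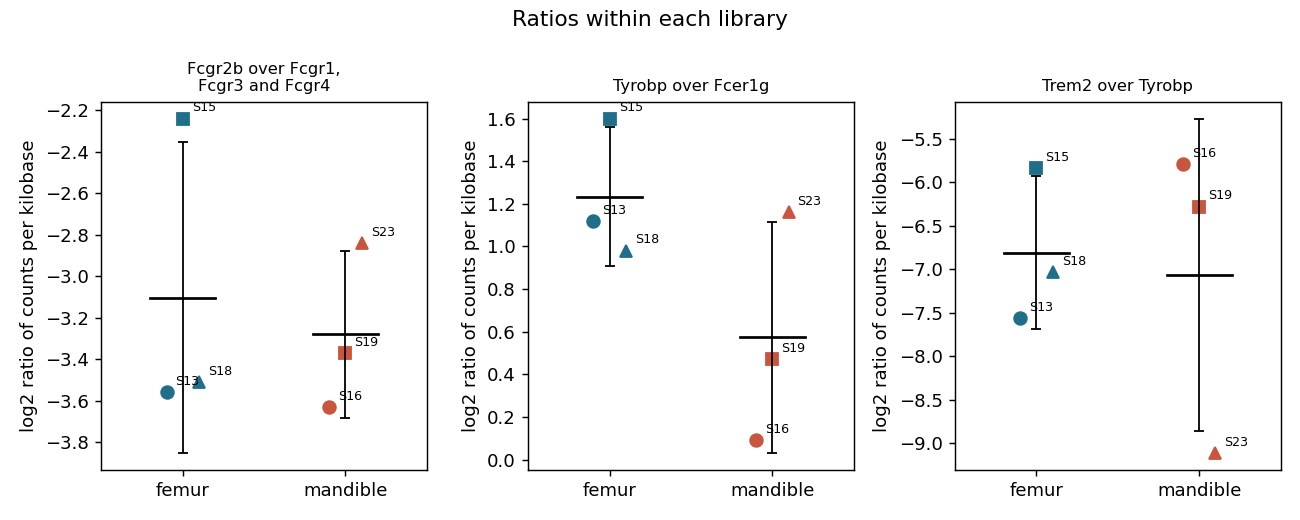
The log2 ratio of counts per kilobase (vertical axis) of Fcgr2b over Fcgr1, Fcgr3 and Fcgr4, of Tyrobp over Fcer1g and of Trem2 over Tyrobp in each library, with the mean (line) and SD (bar) of 3 femur and 3 mandible libraries. The groups overlap in all 3 ratios, and S15 or S23 is the extreme library of its group in each.

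**Figure D3:**
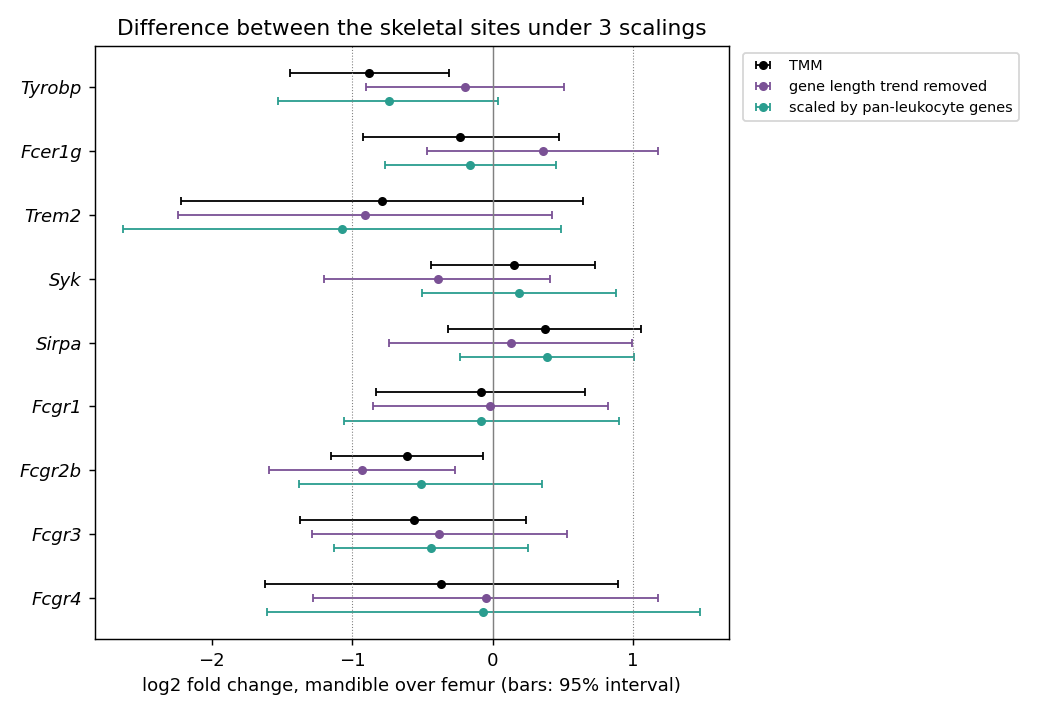
Fitted log2 fold change of the mandible over the femur (horizontal axis) for each gene with its 95% interval, under TMM, after removal of the gene length trend and after scaling by 10 pan-leukocyte genes; dotted lines mark a 2-fold change. The value of Tyrobp moves from -0.88 to -0.20 with the length trend removed. Tyrobp, Trem2, Fcgr1, Fcgr2b, Fcgr3 and Fcgr4 are below 0 in all 3, and with pan-leukocyte scaling every interval includes 0.

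Levels of different genes were compared per kilobase of exon. The divisor was the exonic length of the gene as a whole, not the length of a single transcript. The order of the genes and the levels of the ratios between genes given above rest on this length. In femur-derived monocytes the order was Tyrobp (463 CPM per kilobase), Fcer1g (203), Fcgr3 (102), Sirpa (49.3), Syk (35.9), Fcgr2b (12.6), Fcgr1 (7.45), Fcgr4 (6.51) and Trem2 (4.56). The order of the means was the same in mandibular-derived monocytes, from 252 for Tyrobp to 2.64 for Trem2. In plain CPM Trem2 was not last, as femur libraries averaged 22.6 for Trem2, 19.3 for Fcgr1 and 8.18 for Fcgr4. In the mandible the mean CPM of Trem2 lay between those of Fcgr1 and Fcgr4. In the femur the libraries of Fcer1g and Fcgr3, of Fcgr3 and Sirpa, of Fcgr1 and Fcgr4 and of Fcgr4 and Trem2 overlapped. These are ranges across libraries, not comparisons within a library. Within femur S13, S15 and S18, Fcer1g (209, 139 and 261) was above Fcgr3 (115, 51.2 and 139) each time. Fcgr3 was also above Sirpa (44.3, 43.2 and 60.5) in each of them. In the mandible Fcgr3 and Sirpa, Sirpa and Syk, and each neighbouring pair from Fcgr2b down to Trem2 overlapped. Within mandible S16, S19 and S23, Fcgr3 (74.2, 82.2 and 49.9) was above Sirpa (73.5, 77.1 and 40.9) each time. Sirpa was above Syk (45.6, 40.5 and 33.1) in each of them. For the pairs from Fcgr2b down to Trem2 the order differed between the mandible libraries.

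The genes with the most similar pattern over the 6 libraries were chosen among 9508 genes with a mean of at least 10 CPM, by the root mean square difference of centred log2 CPM. For Tyrobp they were Gfus (0.07), Gng10 (0.08) and Mrps21 (0.09), and the nearest other member was Fcgr2b (0.18). Fcgr3 was nearest to Fcer1g among the members (0.23). Trem2 had no close neighbour, with Rrp36 and Eme1 at 0.42 each, Wdr4 at 0.54 and its nearest member, Fcgr1, at 0.93. For the other members the nearest genes were Clic1, Ifngr1 and Rab8b (Fcer1g), Cyb5b and Lrpap1 (Syk), Enox2, Abhd17c and Slc25a1 (Sirpa), Ercc3, Atg4c and Txlna (Fcgr1), BC035044, Kctd9 and Dapp1 (Fcgr2b), Cct5, Lta4h and Aldh2 (Fcgr3), and Gbe1, Adi1 and Chrac1 (Fcgr4), at 0.02 to 0.18. RefSeq promoters of 300 bases (GRCm38.p6) were matched for 7 members, which have 9 promoters in all. GAGGAA, the core of the PU.1 site, occurred on either strand in 6 of these 9 promoters (of Trem2, Syk, Fcgr1, Fcgr3 and Fcgr4), beside 28.3% of 32851 promoters, and the 2 promoters of Fcgr3 overlap.

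Around the 9 genes, 6 lists of the pathway held 112 further genes, of which 105 were tested and 4 were called. The 3 called lower were 2.86% of those tested and the 1 called higher 0.952%, beside 1.30% and 3.88% of all tested genes, and 17.1% had an unadjusted p under 0.05, beside 16.4%. Among 20 tested receptors that couple to DAP12 or FcR gamma, Gp6 and Trem3 fell and Plxna1 rose, and the median log2 fold change was -0.37. Of 10 other chains, all with an ITAM or hemITAM except the adaptor Hcst, Clec1b fell. Clec7a, the beta-glucan receptor dectin-1, was at 182 ± 67.4 and 191 ± 45.6 CPM (SD, n = 3, femur and mandible). No gene was called by the main edgeR fit or DESeq2 among the 33 kinases and adaptors that act below ITAMs (median 0.13, 20 above 0 and 5 with an unadjusted p under 0.05). Without a filter on low counts edgeR called Card9 of this list. There Lyn, which phosphorylates ITAMs and ITIMs, had a log2 fold change of 0.21 (95% interval -0.48 to 0.90), Plcg2, which raises calcium, 0.30 (-0.33 to 0.93), and Prkcd -0.08 (-0.81 to 0.65). None of 25 tested inhibitory receptors and phosphatases was called by the main edgeR fit (DESeq2 called Clec12a and Dok3), although 19 were below 0, their median was -0.34 and 7 had an unadjusted p under 0.05. Without a filter edgeR called Clec12a, Clec4a2 and Dok3, and with at least 10 counts in every library Dok3. Without femur S15 it called Clec12a, Clec4a2 and Lair1, which were below 0 in the main fit, and Inppl1, which was above 0 there (log2 fold change 1.06). In that list Ptpn6, the phosphatase SHP-1, had 0.10 (-0.69 to 0.88), Inpp5d, the phosphatase SHIP-1, 0.22 (-0.42 to 0.86), and the inhibitory lectin Clec12a -1.10 (-1.84 to -0.35, edgeR adjusted p = 0.10).

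Ligands and partners of TREM2 and SIRP alpha (10 tested) and the other Fc receptors (7 tested of 11) also held no call by the main edgeR fit, with 0 and 1 gene at an unadjusted p under 0.05. DESeq2, and edgeR without a filter on low counts, called 1 of them, Fcgrt. Apoe, a lipid carrier bound by TREM2, averaged 223 ± 114 CPM over femur and 337 ± 97.8 CPM over mandible libraries (SD, n = 3 each). Fcgrt, the neonatal Fc receptor that recycles IgG, was at 19.6 to 35.3 CPM in the femur libraries and 39.2 to 71.2 CPM in the mandible libraries, a log2 fold change of 1.11 that missed the threshold (edgeR quasi-likelihood adjusted p = 0.088).

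**Figure D4:**
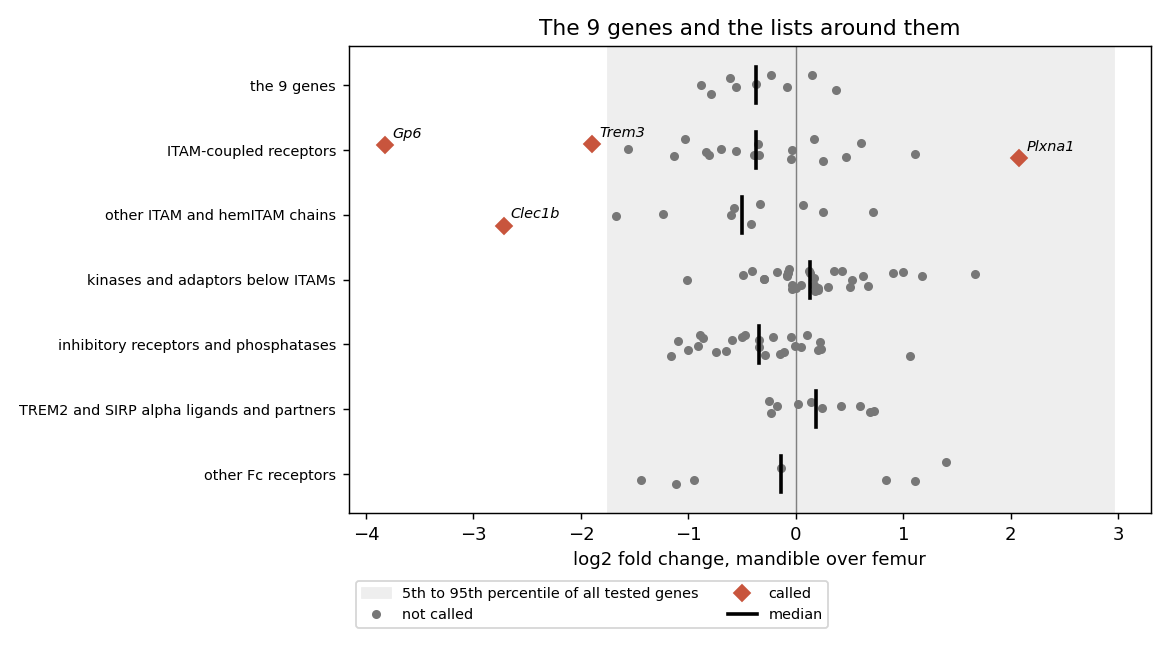
Fitted log2 fold change of the mandible over the femur (horizontal axis) for the 9 genes and for each tested gene of the 6 lists (grey points; called genes as red diamonds with names), with the median of each list (black line) and the 5th to 95th percentile of all tested genes (grey band). Gp6, Clec1b and Trem3 lie to the left, Plxna1 to the right, and none of the 9 genes is called.

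Gp6, the collagen receptor of platelets that needs FcR gamma, was at 25.2 ± 3.73 CPM over the femur libraries and at 1.77 ± 1.18 CPM over the mandible libraries (SD, n = 3 each), S23 being the lowest at 0.458 CPM. The groups were far apart, at -3.82 on the log2 scale (standard error 0.59, edgeR quasi-likelihood adjusted p = 0.0034), and the call held in each alternative in which Gp6 was tested. Clec1b, the platelet hemITAM receptor CLEC-2, was at 34.9, 45.7 and 45.7 CPM in the femur libraries and at 2.50, 2.37 and 14.4 CPM in the mandible, a log2 fold change of -2.72 (adjusted p = 0.030, the same test). Mandible S23 was the highest of its group in Clec1b but under every femur library. Both are platelet genes, and the platelet markers given above moved with them; their part in these calls was not tested.

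Trem3, a DAP12-coupled receptor of myeloid cells, was at 129, 31.8 and 97.8 CPM in femur S13, S15 and S18 and at 20.3, 31.4 and 17.5 CPM in the mandible libraries, with a log2 fold change of -1.90 (edgeR quasi-likelihood adjusted p = 0.034). Femur S15 was next to mandible S19, and S15 was also the femur library with the lowest neutrophil sum, whose part was not tested. The call of Trem3 was lost without femur S13 (edgeR adjusted p = 0.18) and without any other library except femur S15, as well as with the length trend removed (edgeR adjusted p = 0.10) and with pan-leukocyte scaling (edgeR adjusted p = 0.087). Plxna1, a semaphorin receptor that associates with TREM2 and DAP12, was at 11.4, 16.7 and 5.26 CPM in the femur libraries and at 38.2, 46.2 and 57.1 CPM in the mandible, a log2 fold change of 2.08 (adjusted p = 0.013, the same test). The groups did not overlap, and the mesenchymal markers given above were higher in the same libraries, their part not tested. Without femur S13, mandible S19 or mandible S23 the adjusted p of Plxna1 was 0.054, 0.073 and 0.062 (edgeR), and Clec1b lost its call without femur S13 or S18 or mandible S16 or S19 and with total counts alone (edgeR adjusted p = 0.066). With pan-leukocyte scaling the adjusted p was 0.16 for Plxna1 and 0.31 for Clec1b (edgeR).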

How the data were processed

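RNA of marrow monocytes was sequenced in 6 libraries. The deposited table holds unnormalized read counts per gene, which the authors made by trimming paired-end reads, mapping with HISAT2 2.1.0 (submitters' processing notes; GRCm38) and counting with featureCounts; strand and multi-mapping settings are not given in the sources used here. The table's intervals did not lie inside the GRCm38 genes of GENCODE M21 for any of the 9 genes, so positions come from M21 by Ensembl identifier; exonic lengths were equal. Columns of other samples numbered 0.

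In R 4.3.3, edgeR 4.0.16 filtered genes (filterByExpr, minimum count 10, minimum total count 15), applied TMM and ran the quasi-likelihood test without covariates, with the femur as baseline. A call needed a Benjamini-Hochberg adjusted p under 0.05 together with a 2-fold change or more. For single values an exact permutation test (two-sided, 3 against 3 libraries, smallest p 0.1) was added. The 3 counts, the most a count of 0 allows, were 0.118 to 0.191 CPM, for counting error only. Coding motifs were sought in the longest open reading frame of M21 transcripts with a RefSeq match. Alternatives were DESeq2 1.42.0, limma-voom (limma 3.58.1), RLE, total counts, TMM without abundant genes, scaling by 10 pan-leukocyte genes, 3 filters, removal of a loess trend (span 0.4) of log2 CPM on gene length, 2 thresholds, a prior count of 2 and each library left out. The main test was tried on simulated data with the same dispersion for every gene. It called 125 of 196 genes changed 4-fold that passed the filter, and 5 of 17482 unchanged genes. Because dispersion differs between real genes, these shares do not carry over to the members. The members and lists were chosen with earlier results of these data known. Genes named were the 9 members, in each list at most 3 of the highest mean CPM and at most 3 called ones of the largest change, and for each member the 3 with the nearest pattern. Some genes meeting this rule are not reported here. The other marker lists (marrow macrophage, osteoclast, basophil and mast cell, B cell, T and NK cell, erythroid, dendritic and endothelial) served to check the samples.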

Additional observations from a re-analysis of the deposited data

How the results depend on the processing

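None of the 9 genes was called under any alternative. Of the pathway genes around them, 4 were called with all libraries, 7 with DESeq2, 9 without a filter on low counts, 1 with scaling by pan-leukocyte genes and 1 at an adjusted p under 0.01. Leaving out 1 library gave 1 to 8, with 8 without femur S15, 1 without femur S13 or mandible S19, and 2 without femur S18, mandible S16 or mandible S23. With the length trend removed, Fcer1g turned to 0.36 and Syk to -0.39 (log2), and Fcgr1 turned to 0.02 without mandible S23, the top of its range of -0.26 to 0.02 with 1 library left out. The cause of these changes was not tested. The median over the 9 genes stayed between -0.49, without femur S15, and -0.16, with pan-leukocyte scaling. The median over all tested genes was -0.18 with the length trend removed and -1.09 without a filter, beside -0.20 and -0.41 for the 9 genes. Over all genes, 938 calls (702 higher, 236 lower) became 306 (282 higher, 24 lower) with pan-leukocyte scaling, 1547 with DESeq2 and 1590 without a filter, and 434, without mandible S19, to 1565, without femur S15, with 1 library left out. No paired analysis was possible because the groups share no replicate number. With 3 libraries a group, an interval of the members was as wide as -2.22 to 0.64 (Trem2, log2).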

Other observations

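Other marker lists gave values outside the comparisons above. Marrow macrophage markers summed to 95.1 to 233 CPM in femur libraries and 97.6 to 111 CPM in mandible libraries, and of 11 tested Vcam1 was called lower in the mandible (log2 fold change -2.11). Of 6 tested osteoclast markers 5 were above 0, with a median log2 fold change of 0.47. The 1 below 0, Itgb3, the integrin beta 3 chain, was called lower (-1.67). It averaged 291 ± 57.0 CPM over femur and 91.3 ± 17.4 CPM over mandible libraries (SD, n = 3 each). The platelet markers given above were lower in the same libraries, and their part was not tested. Ctsk, the collagen-degrading protease of osteoclasts, had 1.42 without passing the test. Of 8 erythroid markers 4 were called lower, and of 5 tested B cell markers Ebf1 was called higher (1.89). None of 7 basophil and mast cell markers, 9 T and NK cell markers, 7 tested dendritic cell markers or 5 tested endothelial markers was called by edgeR's quasi-likelihood test; 0, 3, 0 and 0 of them had an unadjusted p under 0.05.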
